A study of Mus musculus with 4 samples.

Results

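The 10 genes described here belong to the ATF4 branch of the amino acid and integrated stress response: *Atf4*, *Atf3*, *Atf5*, *Ddit3*, *Trib3*, *Asns*, *Chac1*, *Sesn2*, *Ddit4* and *Cebpg*. They were taken by gene symbol from tables that list 24346 genes, and all 10 were found in every library. Expression was measured by RNA-seq in *in vitro* MDSCs, immature suppressive myeloid cells grown from BM cells of female C57BL/6J mice of 6 to 8 weeks. All cultures received 40 ng/ml GM-CSF for 4 days, and 2 cultures (Control) were compared with 2 that also received 5 ng/ml G-CSF (G-CSF). No genetic change of the mice and no sort of the cells before sequencing is given in the sources used here, so each library may hold several myeloid cell types. Libraries held an estimated 12.4 to 15.6 M reads, and on the log2 scale across the genes tested, the Control cultures correlated at r = 0.9946, the G-CSF cultures at 0.9945 and cultures of different groups at 0.9866 to 0.9892. The study describes the 2 cultures of a group as biological replicates, but whether they came from separate mice is not given in the sources used here, so the p-values measure the spread between these cultures. Values are FPKM, fragments scaled to transcript length and library size, so levels of different genes can be set side by side.

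Cells short of amino acids, or with misfolded protein, phosphorylate the initiation factor eIF2, which slows translation of most mRNAs and lets the ATF4 mRNA be translated. ATF4 pairs with other basic leucine zipper proteins, C/EBPγ among them, and switches on genes for making and importing amino acids, together with CHOP (*Ddit3*), ATF3 and feedback inhibitors. Because ATF4 is set largely at translation, the level of its mRNA does not give the level of the protein, which was not measured. In myeloid cells the same pathway is known from amino acid depletion by arginase and from the heavy secretory load of developing granulocytes.

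The members differ in whether a C/EBP-ATF composite element, the DNA sequence that ATF4 dimers bind, can be read near their start sites. In RefSeq promoter windows of GRCm38.p6 (250 bases before to 50 after a start), the core TGATGNAA was searched on both strands. It occurs in 4 of the 10 members, *Asns*, *Atf3*, *Chac1* and *Trib3*, and in 4.51% of the 27025 genes with a window. The longer form TGATGNAAT, which contains the core, occurs in 0 members and in 1.08% of these genes. The match in *Asns* lies at -23 to -16 from the RefSeq start and reads TGATGAAA. Those of *Atf3* (-110 to -103) and *Chac1* (-193 to -186) both read TGATGCAA on the opposite strand. That of *Trib3* lies past the RefSeq start, at 15 to 22, and reads TGATGTAA on the opposite strand. The gene positions given below come from GENCODE M21, which places some starts elsewhere. By those positions the *Trib3* match (152344039 to 152344046) lies before the start of the gene, at 152344032 on the minus strand. The *Asns* match (7693225 to 7693232) lies inside the annotated gene, which begins at 7693254 on the minus strand. A match is a stretch of letters, not a measured binding site, and a window without one says nothing on sites elsewhere. These 4 promoters are shown because they carry the same core. Whether it bears on the changes of their genes with G-CSF was not tested. The core is in capitals and each stretch runs 5′ to 3′ along the gene. For *Asns* (chr6:7693214-7693243, minus strand) and *Trib3* (chr2:152344028-152344057, minus strand) 30 bases are shown. For *Atf3* (chr1:191183341-191183583, minus strand) and *Chac1* (chr2:119350992-119351228, plus strand) the bases of the window before any annotated exon are shown. These are 243 and 237 bases, and they end short of the RefSeq start from which the positions above are counted. The *Atf3* stretch lies inside the annotated gene, before an internal start site, since another annotated transcript begins further upstream.
Asns: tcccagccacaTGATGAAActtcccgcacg
Trib3: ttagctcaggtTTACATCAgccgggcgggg
Atf3: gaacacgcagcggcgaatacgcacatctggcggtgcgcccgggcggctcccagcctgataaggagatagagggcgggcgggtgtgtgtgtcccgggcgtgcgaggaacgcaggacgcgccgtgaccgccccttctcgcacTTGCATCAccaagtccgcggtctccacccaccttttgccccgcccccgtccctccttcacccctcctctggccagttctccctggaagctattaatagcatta
Chac1: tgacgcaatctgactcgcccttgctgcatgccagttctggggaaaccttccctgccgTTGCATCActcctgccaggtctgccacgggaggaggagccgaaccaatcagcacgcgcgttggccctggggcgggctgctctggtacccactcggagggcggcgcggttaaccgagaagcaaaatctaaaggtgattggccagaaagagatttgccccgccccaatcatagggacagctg

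With G-CSF, the 10 genes did not move together. *Atf4* and *Asns* rose, *Atf3*, *Atf5*, *Ddit3* and *Sesn2* fell, and *Trib3*, *Cebpg*, *Chac1* and *Ddit4* did not pass an adjusted p of 0.05 in limma, which was run on all 11957 genes with enough reads, all 10 members included. The changes were small, and 0 of the 10 passed a fold change of 2, the threshold of the study, which 1.43% of all genes tested passed together with the adjusted p (0.535% higher and 0.895% lower). By adjusted p alone, 2 members were called higher, against 12.6% of all genes tested, and 4 were called lower, against 11.4%. In total 6 of 10 members were called, against 24.1% of all genes tested. Both G-CSF values lay outside both Control values in 7 members, which was also the case for 66.3% of all genes tested (33.7% with G-CSF above and 32.6% below). Without Control replicate 1 or G-CSF replicate 1 the members still called lower numbered 1 and 2, while *Atf4*, *Asns* and *Atf3* stayed called with each library left out in turn, which also lowers the calls over all genes to between 750 and 909 higher and 694 and 1004 lower. The median log2 fold change of the members was -0.01, beside 0.00 for all genes tested.

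**Figure D1:**
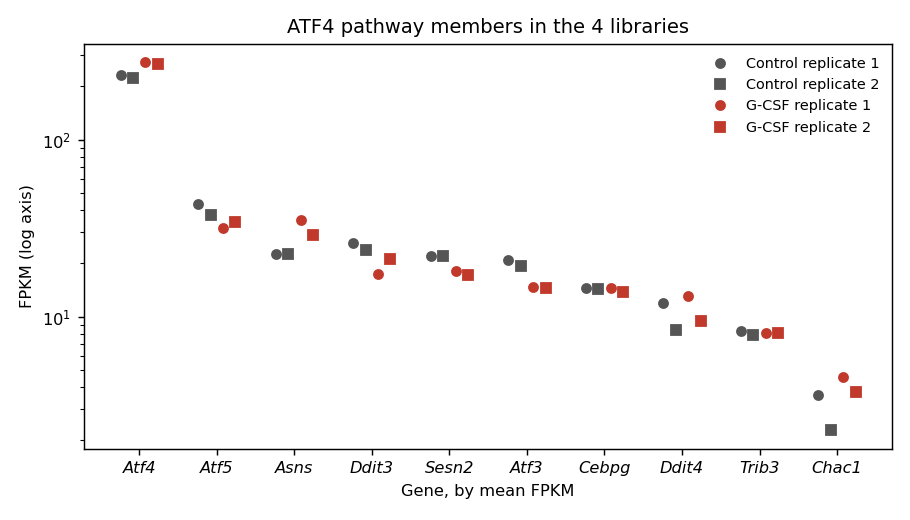
FPKM of the 10 members in each of the 4 libraries, on a log axis, with genes ordered by their mean. Grey marks are Control and red marks G-CSF, with circles for replicate 1 and squares for replicate 2. *Atf4* stands far above the other 9 genes at 222 to 273 FPKM, and *Chac1* is lowest at 2.28 to 4.54 FPKM.

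*Atf4*, the central transcription factor, was by far the most abundant member. Its mean over the 4 libraries was 248 FPKM, above that of 97.1% of the genes tested. *Atf5* (mean 36.7 FPKM), *Asns* (27.2), *Ddit3* (22.1), *Sesn2* (19.8) and *Atf3* (17.4) followed, and each of these overlapped its neighbour in the order when its lowest and highest libraries are considered. *Cebpg* (14.3 FPKM), *Ddit4* (10.7), *Trib3* (8.12) and *Chac1* (3.55) came next in the order of means, without overlap between neighbours. The gaps between *Atf3* and *Cebpg* and between *Ddit4* and *Trib3* were narrow, with 14.546 against 14.506 FPKM and 8.397 against 8.338 FPKM at the closest libraries.

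*Atf4* (chromosome 15, 80255184 to 80257541, plus strand, GRCm38) stood at 231 and 222 FPKM in the Control cultures, against 273 and 266 FPKM under G-CSF. Both G-CSF cultures were above both Control cultures, and the group means were 227 ± 5.77 and 270 ± 4.35 FPKM (SD, n = 2 each). The log2 fold change was 0.25 (SE 0.0434, limma adjusted p = 0.0116), or 1.19-fold. It rests on 4672 to 6308 estimated reads per library, and the call held with each library left out in turn (log2 fold change 0.225 to 0.277).

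*Asns* encodes asparagine synthetase, which makes asparagine from aspartate and glutamine and is a textbook ATF4 target. The gene lies on chromosome 6 (7675169 to 7693254, minus strand), and the promoter stretch with TGATGAAA shown above is its own. It stood at 22.5 and 22.5 FPKM in the Control cultures, against 34.9 and 29.0 FPKM under G-CSF. The Control cultures were nearly identical, while the G-CSF cultures were both higher and differed from each other. The log2 fold change was 0.50 (SE 0.0894, limma adjusted p = 0.0127), or 1.41-fold. With each library left out in turn it ranged from 0.37 to 0.63, and the call was kept each time.

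The other transcription factors of the group went the opposite way or did not pass. *Atf3*, a stress-induced repressor (chromosome 1, 191170296 to 191218039, minus strand), fell from 20.9 and 19.4 FPKM in Control to 14.7 and 14.5 FPKM with G-CSF. The spread within each group was small beside the gap between them. Its log2 fold change of -0.46 (SE 0.0659, limma adjusted p = 0.00713) was the largest fall among the members and held with each library left out (-0.51 to -0.41). *Atf3* and *Asns* moved in opposite directions, and both promoters hold the composite core. Whether the core bears on either change was not tested.

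*Ddit3* encodes CHOP, a C/EBP relative linked to cell death under prolonged stress, on chromosome 10 (127290774 to 127296288, plus strand). Its values were 25.9 and 23.8 FPKM in the Control cultures, against 17.4 and 21.2 FPKM under G-CSF. Both G-CSF cultures were lower, but replicate 2 was close to Control. The log2 fold change was -0.37 (SE 0.102, limma adjusted p = 0.0444). The call was lost without Control replicate 1 (log2 fold change -0.31, adjusted p = 0.139), Control replicate 2 (-0.43, 0.0559) or G-CSF replicate 1 (-0.22, 0.127), the last with a value over 1.5 times smaller. It was also lost with no filter on low values (adjusted p = 0.0861) and with limma voom on estimated reads (adjusted p = 0.0641).

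*Atf5*, which like *Atf4* is controlled through upstream reading frames and is tied to mitochondrial stress, lies on chromosome 7 (44812256 to 44816658, minus strand). It stood at 43.4 and 37.6 FPKM in the Control cultures, against 31.7 and 34.2 FPKM under G-CSF. The groups did not overlap, and the log2 fold change was -0.29 (SE 0.0797, limma adjusted p = 0.0407). Without Control replicate 1 the log2 fold change was -0.19 (adjusted p = 0.148) and without G-CSF replicate 1 it was -0.24 (adjusted p = 0.137), so the call rests on these libraries. It was lost as well with no filter on low values (adjusted p = 0.0775).

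*Cebpg*, the gene of the ATF4 partner C/EBPγ on chromosome 7 (35046422 to 35056573, minus strand), was at 14.5 and 14.3 FPKM in the Control cultures, against 14.5 and 13.8 FPKM under G-CSF. The groups overlapped. The log2 fold change was -0.02, with a 95% interval from -0.18 to 0.14 (limma adjusted p = 0.826). The upper end of this interval lies below the log2 fold changes of *Atf4* (0.25) and *Asns* (0.50).

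Among the effectors, *Sesn2* encodes sestrin 2, a leucine sensor that restrains the growth kinase mTORC1 (chromosome 4, 132492032 to 132510501, minus strand). It fell from 22.0 and 21.9 FPKM in Control to 18.0 and 17.3 FPKM with G-CSF. Replicates lay close together in both groups. Its log2 fold change was -0.31 (SE 0.0587, limma adjusted p = 0.0145), a fall to 0.806 of the Control level. The value ranged from -0.34 to -0.28 with each library left out, and the adjusted p was just past the threshold without Control replicate 1 (0.0565) and without G-CSF replicate 2 (0.0525).

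*Ddit4*, also called REDD1, restrains mTORC1 by another route (chromosome 10, 59949669 to 59951834, minus strand). It stood at 12.0 and 8.40 FPKM in the Control cultures, against 12.99 and 9.40 FPKM under G-CSF. The groups overlapped, and in both groups replicate 1 was above replicate 2. The log2 fold change was 0.14, with a 95% interval from -0.35 to 0.63 (limma adjusted p = 0.65), which includes the value of *Sesn2*.

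*Chac1* encodes an enzyme that degrades glutathione inside the cell, and is a known ATF4 target (chromosome 2, 119351229 to 119354381, plus strand). Its values were 3.62 and 2.28 FPKM in the Control cultures, against 4.54 and 3.76 FPKM under G-CSF, on 46 to 84 estimated reads per library. Both G-CSF cultures were above both Control cultures, but replicate 1 of Control lay close to replicate 2 of G-CSF. The log2 fold change of 0.51 was as large as that of *Asns*, with a standard error of 0.223 and an adjusted p of 0.143 (limma), and its 95% interval ran from -0.03 to 1.04. Without Control replicate 1 it was 0.83 and passed (adjusted p = 0.028). Without Control replicate 2 it was 0.19.

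*Trib3*, a pseudokinase that feeds back on ATF4 and CHOP (chromosome 2, 152337422 to 152344032, minus strand), had the log2 fold change nearest to 0 of the members. It stood at 8.34 and 7.91 FPKM in the Control cultures, against 8.10 and 8.12 FPKM under G-CSF. The G-CSF values lay between those of Control. The 95% interval of its log2 fold change ran from -0.20 to 0.19 (limma adjusted p = 0.989).

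**Figure D2:**
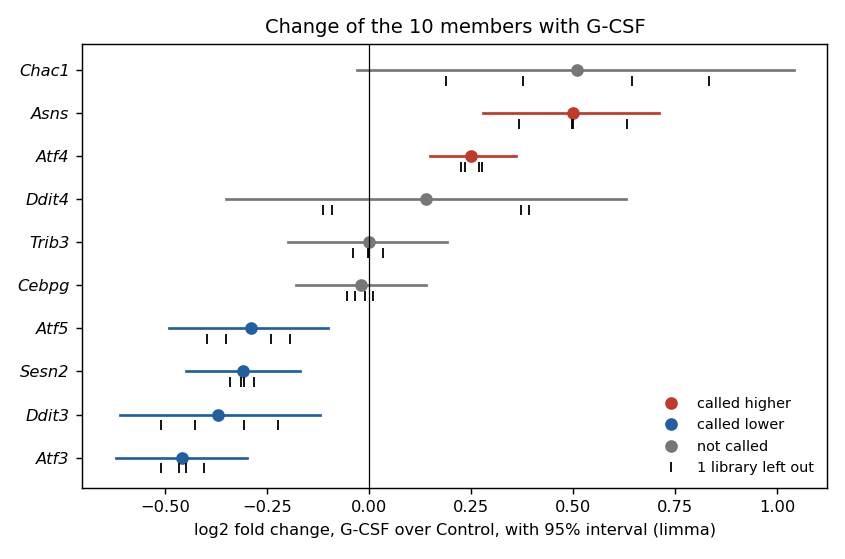
log2 fold change of each member, G-CSF over Control, as a point with its 95% interval from limma. Black ticks give the value with 1 library left out. *Asns* (0.50) and *Atf4* (0.25) are called higher, and *Atf3* (-0.46), *Ddit3* (-0.37), *Sesn2* (-0.31) and *Atf5* (-0.29) lower, while the ticks of *Chac1*, from 0.19 to 0.83, show how far its value rests on single libraries.

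The same values can be given as ratios of members within a library, where library size cancels. The pairs were chosen after the changes were seen, so the ratios restate the values above and add no separate evidence. *Asns* stood at 0.869 and 0.947 times the FPKM of *Ddit3* in the Control libraries, and at 2.01 and 1.37 times with G-CSF. Against *Atf3* the ratio was 1.08 and 1.16 in Control, against 2.37 and 2.0 under G-CSF. In each of these pairs both G-CSF ratios were above both Control ratios, which follows from *Asns* rising and *Ddit3* and *Atf3* falling. Against *Chac1* the ratio was 6.22 and 9.89 in Control, against 7.69 and 7.72 under G-CSF, and here the groups overlapped. Relative to *Atf4* mRNA, *Atf3* stood at 9.06% and 8.73% in Control and at 5.40% and 5.46% with G-CSF, and *Sesn2* at 9.53% and 9.83% in Control and at 6.61% and 6.48% with G-CSF.

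Overlap of the members with other genes was looked up in the annotation. In GENCODE M21, 0 of the 75-base windows of the transcripts of 9 members occur in another gene, and 0.6% of those of *Atf5*. Exons of other genes cover 4.1% of the exon bases of *Atf5* (*Nup62* and *Il4i1*), 4.7% of those of *Ddit3* (*Mars* and *Gm4189*) and 1.4% of those of *Cebpg* (*Gm44836* on the same strand and *Gm45095* on the opposite one). The genes that overlap *Atf5* and *Ddit3* lie on the opposite strand. *Mars*, the methionyl-tRNA synthetase gene, had a log2 fold change of 0.33 (limma adjusted p = 0.0104) and was called higher, while *Ddit3* fell. *Nup62* was also called higher (0.21, limma adjusted p = 0.023), while *Atf5* fell. *Il4i1* did not pass (log2 fold change -0.59, limma adjusted p = 0.0975), but both its G-CSF values lay below both its Control values, as for *Atf5*. It had 38.9 and 26.0 FPKM in Control against 25.2 and 17.6 FPKM under G-CSF. With the replicate number added to the limma model, *Il4i1* passed (adjusted p = 0.000354). The part of these genes in the values of *Atf5* and *Ddit3* was not tested. The library kit keeps strand, but whether the authors counted by strand is not given in the sources used here.

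Upstream of ATF4 stand the 4 eIF2 kinases and the factors they act on. In this list all 17 genes were tested, and 8 were called higher and 1 lower, against 12.6% and 11.4% of all genes tested. The median log2 fold change was 0.19. The genes that rose were not kinases: 7 encode subunits of eIF2 and of its exchange factor eIF2B, and *Gcn1l1* encodes a coactivator of the kinase GCN2. *Eif2s2* rose from 71.6 and 68.4 FPKM in Control to 95.8 and 94.4 FPKM with G-CSF (log2 fold change 0.44, limma adjusted p = 0.00369), and *Eif2s3x* by 0.32 (adjusted p = 0.00784). Of the 8, these 2 stayed called with each library left out in turn, and the number still called was 2 without Control replicate 1, 5 without G-CSF replicate 1 and 3 without G-CSF replicate 2. Of the 75-base windows of *Eif2s3x*, 34.2% also occur in other genes, which leaves its level uncertain.

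The kinase genes themselves were not called, with log2 fold changes from -0.16 to 0.12. *Eif2ak1* (HRI) was at 33.2 and 31.8 FPKM in the Control cultures, against 33.3 and 31.8 FPKM under G-CSF. *Eif2ak2* (PKR), *Eif2ak3* (PERK) and *Eif2ak4* (GCN2, the sensor of uncharged tRNA) had log2 fold changes of 0.07, -0.16 and 0.12 and adjusted p-values of 0.566, 0.172 and 0.352. *Impact*, an inhibitor of GCN2 activation, was lower with G-CSF, with 9.42 and 9.64 FPKM in the Control cultures, against 7.60 and 7.22 FPKM under G-CSF (log2 fold change -0.36, limma adjusted p = 0.0241). That call did not hold with any library left out (adjusted p 0.0571 to 0.087, log2 fold change -0.40 to -0.32). The eIF2 phosphatase subunit *Ppp1r15a* (GADD34), itself an ATF4 target, gave -0.08 (adjusted p = 0.702).

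The genes for amino acid synthesis and import that ATF4 is known to drive were often higher together with *Asns*. Of 20 genes, 18 were tested, 9 were called higher and 1 lower, against 12.6% and 11.4% of all genes tested. The median log2 fold change was 0.36. The 4 genes of smallest p all serve serine and one-carbon metabolism: *Psph* rose by 0.65 (limma adjusted p = 0.00526), *Shmt2* by 0.63 (adjusted p = 0.00145), *Phgdh* by 0.57 (adjusted p = 0.00801) and *Psat1* by 0.52 (adjusted p = 0.00226). *Psat1*, which encodes phosphoserine aminotransferase, went from 78.4 and 76.2 FPKM in Control to 112 and 110 FPKM with G-CSF. Among the carriers, the leucine transporter gene *Slc7a5* rose by 0.41 (adjusted p = 0.00982) and the arginine and lysine transporter gene *Slc7a1* by 0.45 (adjusted p = 0.0105). *Slc3a2*, the partner chain of *Slc7a5*, gave -0.01 (adjusted p = 0.903). Of the 9 genes called higher, 7 stayed called with each library left out in turn. *Phgdh* shares 35.8% of its 75-base windows with pseudogenes and other genes, and its level is likewise uncertain.

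*Slc7a11*, the cystine carrier that supplies cysteine for glutathione, was the exception in this list. It stood at 27.7 and 30.7 FPKM in the Control cultures, against 20.8 and 24.4 FPKM under G-CSF (log2 fold change -0.37, limma adjusted p = 0.0311). The groups did not overlap, and the call was lost without Control replicate 2 (log2 fold change -0.30, adjusted p = 0.0996) and without G-CSF replicate 1 (-0.26, adjusted p = 0.0949). It was also lost with no filter on low values (adjusted p = 0.0629). *Cth*, the cystathionine lyase gene of the other route to cysteine, had too few reads to be tested, with 0.14 and 0.088 FPKM in the Control cultures, against 0.454 and 0.241 FPKM under G-CSF.

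The other genes tied to ATF4 were divided. Of 15 genes, 14 were tested, 4 were called higher and 3 lower, against 12.6% and 11.4% of all genes tested. The median log2 fold change was 0.11. Of the 4, 2 were still called without Control replicate 2 and 2 without G-CSF replicate 1, and of the 3, 1 without G-CSF replicate 1. Of the genes called in these lists, 2 had a fold change over 2, *Stc2* and *Soat2*, both at low levels. With a pseudocount of 1 FPKM both were under that fold, at log2 fold changes of 0.76 and 0.61, and neither was tested when at least 1 FPKM was required in every library. *Stc2*, the gene of the secreted glycoprotein stanniocalcin 2, rose from 0.847 and 0.445 FPKM to 2.23 and 1.37 FPKM (log2 fold change 1.37, limma adjusted p = 0.0308). Its call was lost without Control replicate 2 (0.97, adjusted p = 0.0733), without G-CSF replicate 1 (1.04, adjusted p = 0.116) and with no filter on low values (adjusted p = 0.0734). *Soat2*, which encodes a cholesterol esterifying enzyme, rose by 1.20 (adjusted p = 0.0142) on 12 to 45 estimated reads per library, and its adjusted p was 0.0594 without G-CSF replicate 2. *Xpot*, the tRNA export factor gene, rose by 0.36 (adjusted p = 0.00862), and the growth arrest gene *Gadd45a* fell by 0.47 on the log2 scale (adjusted p = 0.0108). Both of these stayed called with each library left out. The other gene called higher was *Ero1l* (0.34, limma adjusted p = 0.0294). The others called lower were *Sqstm1* (-0.30, adjusted p = 0.0263) and *Map1lc3b* (-0.23, adjusted p = 0.0135). The stress hormone gene *Gdf15* was at 10.6 and 8.69 FPKM in the Control cultures, against 7.70 and 7.38 FPKM under G-CSF (log2 fold change -0.34, adjusted p = 0.067). *Fgf21*, the other stress hormone gene, was listed at 0 in all 4 libraries.

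Of the other arms of the unfolded protein response, sensed in the endoplasmic reticulum by ATF6 and IRE1, 22 genes were tested. Of these, 11 were called higher and 1 lower, against 12.6% and 11.4% of all genes tested. The median log2 fold change was 0.20. The genes that rose encode chaperones and folding enzymes. *Hspa5* (BiP) went from 369 and 364 FPKM to 451 and 451 FPKM (log2 fold change 0.30, limma adjusted p = 0.00648), *Hsp90b1* rose by 0.30 (adjusted p = 0.00737), *Hyou1* by 0.29 (adjusted p = 0.00921) and *Manf* by 0.37 (adjusted p = 0.00569). These 4 stayed called with each library left out, the only ones of the 11 to do so, and 6 of the 11 were still called without Control replicate 1 and 4 without G-CSF replicate 2. The sensors and the factor *Xbp1* did not pass: *Atf6* gave 0.12, *Ern1* 0.23 and *Xbp1* 0.02. *Herpud1*, a degradation factor driven by ATF4 and ATF6, was the gene called lower (-0.18, adjusted p = 0.0349), a call that was lost with any library left out (adjusted p 0.0681 to 0.141).

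Mitochondrial chaperones and proteases, whose genes respond when protein folding in mitochondria fails, were mostly higher. Of 10 genes, 9 were found and tested. By limma 7 were called higher and 0 lower, against 12.6% and 11.4% of all genes tested, with 0 lower by voom as well. At an unadjusted p under 0.05 there was 1 lower gene, the protease gene *Oma1* (log2 fold change -0.22, adjusted p = 0.0693). The median was 0.30. *Hspd1* (HSP60) rose from 152 and 154 FPKM to 223 and 229 FPKM (log2 fold change 0.56, limma adjusted p = 0.00162) and *Lonp1* by 0.39 (adjusted p = 0.00564). With each library left out in turn, 3 of the 7 stayed called every time, and the number still called was 3 without Control replicate 1 and 4 without G-CSF replicate 2. *Hspd1* shares 31.0% of its 75-base windows with other genes, pseudogenes among them, and its level is uncertain too.

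**Figure D3:**
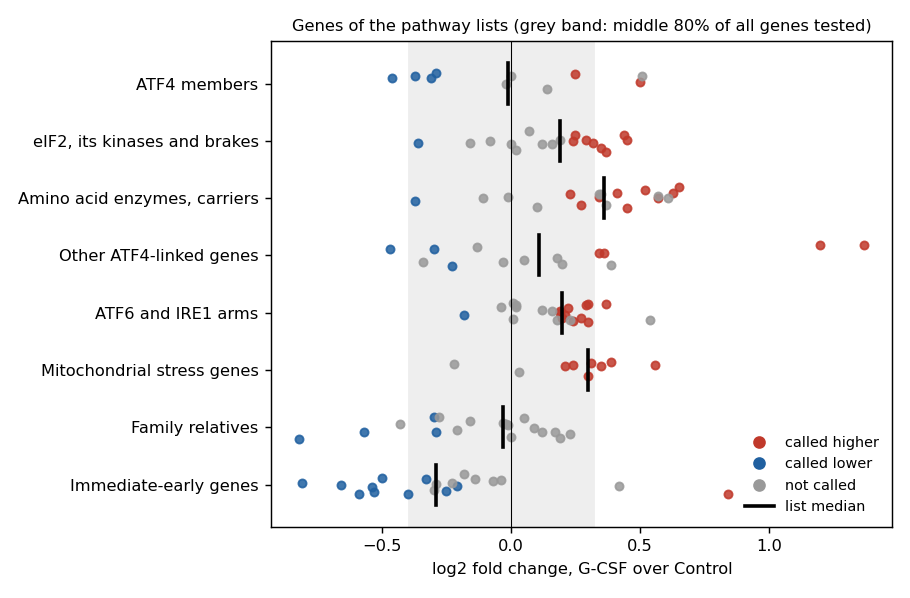
log2 fold change, G-CSF over Control, of each gene tested in the 10 members and in 7 related lists. Red points are called higher and blue points lower at an adjusted p under 0.05, black bars are list medians, and the grey band holds the middle 80% of all genes tested (-0.40 to 0.32). The medians lie at 0.36 for the amino acid genes and 0.30 for the mitochondrial genes, at -0.01 for the members and at -0.29 for the immediate-early genes.

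The nearest relatives of the members were compared with them. Of 19 genes of the ATF, CREB, C/EBP, tribbles, sestrin and related families, 18 were tested. By limma 0 were called higher (2 by voom, and 2 at an unadjusted p under 0.05) and 4 lower. Over all genes tested, 12.6% were called higher, 11.4% lower and 24.1% in total. The 4 of 18 called are close to that total share. The median log2 fold change was -0.03. *Trib1*, a pseudokinase that targets C/EBPα for destruction, fell from 6.56 and 6.87 FPKM to 3.89 and 3.64 FPKM (log2 fold change -0.82, SE 0.101, limma adjusted p = 0.00524), while its paralog *Trib3* gave -0.002. The dendritic cell factor *Batf3* fell by 0.57 on the log2 scale (adjusted p = 0.0123). *Cebpb* (-0.30, adjusted p = 0.0246) and *Cebpd* (-0.29, adjusted p = 0.0414) were lower as well, both no longer called without Control replicate 1 (-0.21 and -0.19), without G-CSF replicate 1 (-0.25 and -0.27) or with no filter on low values, and *Cebpd* also without G-CSF replicate 2 (-0.32). *Cebpa* gave 0.23 (adjusted p = 0.0538). *Sesn1*, *Sesn3* and *Chac2* did not pass (adjusted p 0.988, 0.224 and 0.201).

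*Atf3* is also counted among the immediate-early genes, which respond to growth factors and to handling within minutes. In that list 19 of 20 genes were tested, 10 were called lower and 1 higher, against 11.4% and 12.6% of all genes tested, and the median log2 fold change was -0.29. *Btg2* (-0.54, limma adjusted p = 0.00322), *Egr2* (-0.59, adjusted p = 0.00631), *Klf6* (-0.33, adjusted p = 0.00996), *Zfp36* (-0.40, adjusted p = 0.0107) and *Egr1* (-0.81, adjusted p = 0.0113) fell and stayed called with each library left out. Of the 10, 6 were still called without G-CSF replicate 1. The 1 gene called higher, the phosphatase gene *Dusp2*, was lost without Control replicate 1, Control replicate 2 or G-CSF replicate 1. *Fos* (-0.29, adjusted p = 0.139) and *Jun* (-0.23, adjusted p = 0.0596) did not pass. The part of this shared direction in the fall of *Atf3* was not tested.

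Markers of several cell types moved with G-CSF too, and in bulk libraries fewer cells of a type and less RNA per cell cannot be told apart. By flow cytometry of cultures under the same conditions, the study reports unchanged percentages of MDSCs, dendritic cells and macrophages with G-CSF. Within the CD11b-positive cells, it reports a higher proportion of monocytic MDSCs and a lower one of polymorphonuclear MDSCs. All 11 listed MDSC and myeloid identity genes that were found were expressed, and 7 of the 11 were called lower. Over all genes tested, 11.4% were called lower and 12.6% higher. The summed level of this list was 60800 to 70400 FPKM in Control against 48600 to 48700 FPKM under G-CSF. Most of that sum came from *S100a8* and *S100a9*, of which *S100a8* did not pass (limma adjusted p = 0.0847). The dendritic cell list summed to 2990 to 3510 FPKM in Control and 1560 to 1940 FPKM with G-CSF (7 of 10 genes lower). Most of that sum came from *Cd74*, *H2-Aa* and *H2-Ab1*, while *Flt3*, *Zbtb46* and *Ccr7* did not pass (limma adjusted p 0.221, 0.253 and 0.0753). The macrophage list summed to 556 to 570 and 458 to 471 FPKM (7 of 9 lower). For the eosinophil list the sums were 567 to 673 and 338 to 375 FPKM (3 of 7 tested lower, *Ear6*, *Prg2* and *Epx*). *Ear6* went from 177 and 141 FPKM in Control to 42.5 and 42.4 FPKM with G-CSF. *Prg3*, *Ear1*, *Ear2* and *Siglecf* did not pass (limma adjusted p 0.0533 to 0.845). The sums of the mast cell and basophil list were 140 to 142 and 88.0 to 97.4 FPKM (5 of 7 lower). Of the 11 neutrophil granule genes, 4 were higher: *Mpo* (log2 fold change 1.52), *Prtn3* (1.42), *Ctsg* (1.25) and *Elane* (0.99). The 5 lower were *Camp* (-1.81), *Ltf* (-1.32), *Mmp9* (-1.08), *Lcn2* (-0.57) and *Ngp* (-0.55). This list summed to 12600 to 13500 FPKM in Control and 9230 to 9630 FPKM with G-CSF. Most of that sum came from *Ngp*, *Lcn2* and *Ltf*, so it does not show the genes that rose. The summed lymphoid list overlapped between groups (15.4 to 22.7 FPKM over all libraries), with *Nkg7* its highest gene at 6.99 to 15.1 FPKM. Of 7 tested genes, 3 were lower, *Cd3d* (-1.04), *Cd8a* (-1.05) and *Cd79a* (-0.98), and 0 higher. These 3 genes were at low levels, from 0.278 to 1.57 FPKM over all libraries. *Ncr1* was at 0 in every library, and the erythroid list stayed at 2.69 to 5.53 FPKM. The samples' labels speak of liver tissue in the extraction protocol, but 8 of 10 hepatocyte genes, *Alb* and *Apoa1* among them, were at 0 in every library. The part of these shifts in the changes of the 10 members was not tested.

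**Figure D4:**
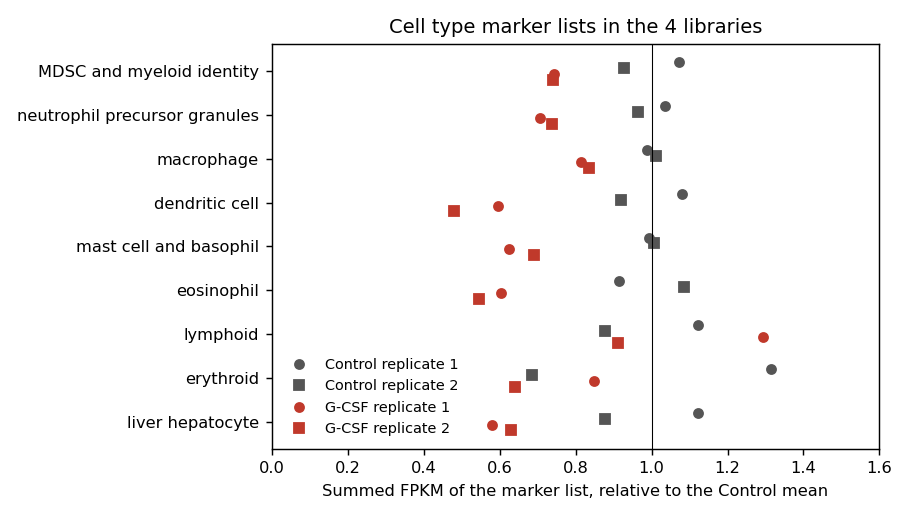
Summed FPKM of each cell type marker list in the 4 libraries, divided by the mean of the Control libraries. Grey marks are Control and red marks G-CSF. The dendritic cell, eosinophil and mast cell lists stand at 0.539, 0.574 and 0.657 of Control in the group means, and the lymphoid list at 1.1.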

How the data were processed

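The authors deposited 1 table of values per library. The submitters' processing notes name TopHat2 2.0.13, Bowtie2 2.2.3, SAMtools 0.1.19 and Cufflinks 2.2.1 and the build mm10, and the annotation is not given in the sources used here. The deposited values were taken as FPKM, since Cufflinks writes FPKM and the values are not whole numbers. They were used without rescaling. Libraries were stranded mRNA read over 75 bases from a single end. Doses, culture time and age come from the study's methods.

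Reads were estimated from the steps of the lowest values, in transcripts of 600 to 4000 bases shortened by 210 bases, with 66.3% to 68.2% of such values within 0.05 of a whole read (10% by chance). This gave 12.4 to 15.6 M reads per library. Transcript lengths, positions and exons came from GENCODE M21 (GRCm38, the assembly of mm10), which gave a length for 23976 of 24346 genes. Promoter sequences came from RefSeq (GRCm38.p6), where all 10 members matched by symbol.

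Genes reaching 10 estimated reads in 2 libraries and 15 over all, with transcripts over 200 bases, were tested with limma (lmFit and eBayes with trend, two-sided) on log2(FPKM + 0.1), with the Benjamini-Hochberg adjustment over all 11957 genes and a call at an adjusted p under 0.05. The pseudocount pulls fold changes of low genes toward 0. A 95% interval is that of the same fit and is not adjusted. The fit was also run on simulated data with a common spread for all genes and independent replicates. The real libraries may differ in both, so that run does not vouch for the calls given here. The members and lists were chosen with earlier results of these data known. All members are named. From each list only some genes of smallest p and some genes called are named, so not every call is shown. Genes that a statement turns on were chosen after their values were seen (kinases and sensors, paralogs, *Gdf15*, *Fgf21*, *Cth*, *Slc3a2*, *Mars*, *Nup62*, *Il4i1*). Alternatives were pseudocounts, filters, scalings, a replicate block, voom and each library left out. Leaving out a library leaves 1 in its group, which is then assumed to vary like the other group. The tools were R 4.3.3, limma 3.58.1, python 3.11.15, numpy 2.4.6, pandas 2.3.3 and matplotlib 3.10.9.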

Additional observations from a re-analysis of the deposited data

How the results depend on the processing

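Over the 8 settings that keep all 4 libraries, 76 of 80 values of the members kept their direction and their side of the threshold. The others were *Atf5* and *Ddit3* with no filter on low values, which left 2 members called lower, *Ddit3* with voom, and *Chac1*, which passed only with the replicate block (adjusted p = 0.0229). The replicate numbers could not be shown to pair the cultures: same-numbered libraries deviated together from their group means (r = 0.269 across genes, which are not independent replicates), but nothing in the labels ties them. With the block in the model, 3 members were higher and 4 lower, and over all genes 2045 were higher and 1963 lower, against 1508 and 1368 without it. Of the genes with the promoter core, *Chac1* and *Pck2* were called higher with the block but not without it (limma adjusted p = 0.0229 and 0.0151). With a fold change over 2, 64 genes were higher and 107 lower, against 25 and 32 with a pseudocount of 1 FPKM and 25 and 51 with at least 1 FPKM required in every library. The longer promoter motif matched 0 members. With each library left out in turn, 750 to 909 genes were higher and 694 to 1004 lower, 42 to 74 were higher and 78 to 125 lower with a fold change over 2, 2 to 3 members were higher and 1 to 3 lower, and 23 to 32 genes of the 7 lists were higher and 10 to 17 lower, against 40 and 20 with all libraries. Those fits hold fewer libraries. The log2 fold changes of *Ddit4* (-0.114 to 0.392), *Trib3* (-0.039 to 0.035) and *Cebpg* (-0.055 to 0.009) changed sign among them. With 2 cultures per group, changes below those called here may be missed, and *Chac1* rests on the fewest reads of the members.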

Other observations

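The composite core TGATGNAA was also looked for in the promoters of the related lists, as a description. Among the amino acid genes, 15 of 20 had a window and 4 held the core: *Pck2*, *Pycr1*, *Slc7a11* and *Slc1a4*. Without a replicate block none of these 4 was among the 9 genes called higher, and *Slc7a11* was the gene called lower. Genes without a window could not be scored, and whether the core bears on these calls was not tested. *Pck2*, the mitochondrial enzyme that makes phosphoenolpyruvate, was at 9.37 and 6.82 FPKM in the Control cultures, against 11.6 and 8.82 FPKM under G-CSF (log2 fold change 0.34, limma adjusted p = 0.221), and *Pycr1*, of proline synthesis, was at 0.579 and 0.521 FPKM in the Control cultures, against 0.890 and 0.898 FPKM under G-CSF (0.61, adjusted p = 0.0704). Among the other ATF4-linked genes, 10 of 15 had a window and 4 held the core, *Nupr1*, *Vldlr*, *Fgf21* and *Jdp2*, none of them called by limma, and *Fgf21* was not tested. At an unadjusted p under 0.05 there were none either. In the eIF2 list 1 of 13 genes with a window held it, *Eif2s3x*, which was called higher. In the list of the ATF6 and IRE1 arms 1 of 19 genes with a window held it, *Herpud1*, the gene called lower in that list. In the lists of mitochondrial stress genes, family relatives and immediate-early genes 0 genes held it. Elements outside these short windows are not seen.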
